A study of Mus musculus with 9 samples.

Results

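The 38 genes described here encode the core machinery of DNA replication: origin licensing factors, the replicative helicase, the sliding clamp and its loader, the replicative polymerases, replication protein A, the enzymes that finish lagging strand fragments, and ribonucleotide reductase. They were chosen by name, and a gene's rows were found through the RefSeq identifiers of the deposited table and added per symbol. Of the 38 genes, 34 had a row, and 29 had enough reads to be tested, among 10576 genes tested of 14771 named genes in the table. The table gives the reads of each transcript divided by the library's size factor, called normalized reads here.

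RNA was sequenced from 3 groups of mouse brain cells, with 3 libraries each. The OB group was tumour cells from the olfactory bulb, with Foxr2 overexpression and p53 cko, on a mixed 129 and C57BL/6 background. The BS group was tumour cells from the brainstem with the same genotype and background. The AG group was astroglia on a C57BL/6 background, with p53 DN and Nf1 shRNA. Foxr2 encodes a forkhead transcription factor. A p53 alteration was thus shared by all groups, of another kind in AG. Between tumour cells and AG, genotype, strain and tissue of origin differed together and cannot be told apart. The driver of Foxr2 is not named. Nothing in the labels ties a library to its own animal or culture, so p-values measure only the spread between these libraries. How much of that spread is technical is not known. AG libraries varied far less than tumour libraries, for example with an SD of 10.1 normalized reads for Pole, against 907 in OB and 862 in BS. The tests against AG use a spread shared by the 3 groups, into which the small AG spread enters. Values are listed in the order of the library names: OB_257, OB_287 and OB_295, then BS_287, BS_295 and BS_296, then AG_1, AG_2 and AG_3.

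DNA replication begins with licensing. The origin recognition complex (which includes Orc1), with Cdc6 and Cdt1, loads rings of Mcm2 to Mcm7 onto origins in G1 phase. In S phase Cdc45 and the GINS complex join the ring to make the active helicase, polymerase alpha with its primase makes the primers, and polymerases epsilon and delta extend them on the leading and lagging strands, held by the clamp Pcna. Many of these genes are transcribed late in G1 and in S phase under E2F factors, so in bulk RNA fewer cycling cells and less RNA per cell cannot be told apart.

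The libraries held between 11300273 and 19868282 reads in the table. OB_257 stood apart from the other OB libraries, for example at 88.4 normalized reads of Slc1a3 against 15575 and 23699, and counts are also given without it and BS_287. Astrocyte markers did not bear out the astroglial label of AG as a set. Gja1 had 1.11 to 662 normalized reads in OB, 369 to 2879 in BS and 4961 to 5396 in AG. Slc1a3 had 15575 and 23699 in OB_287 and OB_295 and 11447 to 25665 in BS, against 753 to 855 in AG. S100b had 179.9 to 6616 in OB, 5.87 to 639 in BS and 25.0 to 27.2 in AG. Gfap (0.834 to 3.27), Aqp4 (1.09 to 1.97), Aldh1l1 (at most 5.91) and Aldoc (0 to 1.09) were near 0 in AG, but these genes have several annotated transcripts, whose rows are mostly low in this table. The 7 astrocyte markers with a row (of 8) summed to 6723 to 29704 in OB, 14430 to 27617 in BS and 5746 to 6288 in AG. Markers of other cells also differed with the groups. The 5 oligodendrocyte precursor markers summed to 35268 to 55130 in OB, 33881 to 77544 in BS and 16.3 to 20.0 in AG. Their members were uneven: Sox10 had 30528 normalized reads in OB_257, most of the sum there, but 3.35 in BS_287 and 29.9 in BS_295. Pdgfra, with several annotated transcripts, had 1.11 to 97.8 in tumour libraries and 3.94 to 8.71 in AG. The 4 fibroblast markers summed to 9.95 to 117 in OB, 11.7 to 13.9 in BS and 35403 to 46185 in AG, nearly all of it Col1a1. The 3 pericyte and smooth muscle markers with a row (of 5) summed to 18.8 to 73.9 in OB, 8.39 to 40.4 in BS and 52560.4 to 56002.5 in AG, nearly all of it Acta2. The 4 endothelial markers with a row (of 5) summed to 11.1 to 212 in OB, 28.6 to 242 in BS and 921 to 1035 in AG, and the 6 neuronal markers to 4603 to 9613 in OB, 4439 to 6538 in BS and 1056 to 1085 in AG. Of the neuronal markers, Rbfox3 and Snap25, with several annotated transcripts, were at most 13.4 and 6.71 in any library. Tubb3 overlapped AG in BS (416 to 2148, against 648 to 765). Flt1, at 0 to 3.94 in the tumour libraries and 911 to 1027 in AG, made up nearly all of the endothelial sum in AG, while Cdh5 and Cldn5 were at most 10.5 in any tumour library and at 0 in AG. Kdr went the other way in every tumour library but OB_257. It had 6.63, 199 and 92.4 in OB and 242, 84.3 and 12.8 in BS, against 7.88 to 10.8 in AG. Microglial markers (3 of 6 with a row; Cx3cr1, Aif1 and P2ry12 had none) summed to 68.5 to 81.8 in OB, 32.0 to 103 in BS and 59.2 to 71.0 in AG. The part of these differences in the results below was not tested.

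Against AG, 5 of the 29 tested replication genes fell in OB and none rose. These were Pola1, Prim1, Gins2, Rrm2 and Orc1. In BS 3 rose (Pold1, Rpa2 and Mcm6) and 2 fell (Pola1 and Prim1). The share called was 17.2% of the tested replication genes in each comparison, against 34.9% of all tested genes in OB versus AG (16% higher and 19% lower) and 35.1% in BS versus AG (15.6% higher and 19.5% lower). Neither share of the replication genes exceeded that background. Calls required an adjusted p below 0.05 in limma's moderated test on log2(normalized reads + 1), adjusted by Benjamini-Hochberg over all genes tested. Both comparisons use the same AG libraries. Leaving out any 1 of the AG libraries left Pola1 as the only replication gene called in either comparison. Of all tested genes, 23.7% to 23.9% were then called in OB versus AG and 22.9% to 23.3% in BS versus AG. Without OB_257 alone, 0 rose and 3 fell in OB, and 4 rose and 2 fell in BS. The shares of all tested genes called were then 35.4% in OB and 41.2% in BS. Without OB_257 and BS_287 together, 0 rose and 6 fell in OB, and 7 rose and 1 fell in BS, where 45.2% and 44.8% of all tested genes were called.

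Genes with a single annotated transcript keep their reads in a single row, so the 23 such replication genes (all tested) give the plainest picture. Their median log2 change was -0.23 in OB versus AG (range -1.73 to 0.34) and 0.03 in BS versus AG (range -1.56 to 1.01), beside -0.01 and -0.03 over all tested genes. Scaling matters for these counts. With upper-quartile scaling the median of all genes moved to 0.18 in both comparisons. With scaling to total reads it moved to 0.32 in OB versus AG and 0.30 in BS versus AG. Relative to that median, the 23 genes lay at -0.22, -0.22 and -0.22 in OB (as deposited, upper-quartile, total reads) and at 0.06, 0.06 and 0.07 in BS, and under quantile normalization at -0.13 in OB and 0.16 in BS. The share of higher genes among all calls moved to 56.3% and 63.7% under these scalings in OB versus AG, from 45.7% as deposited, and to 56.1% and 62.7% in BS versus AG, from 44.5%. The replication genes called then numbered 0 higher and 1 lower, and 4 higher and 1 lower, in OB. In BS they numbered 8 higher and 1 lower, and 11 higher and 1 lower. The lower gene was Pola1 each time. Of all 10576 tested genes, 36.2% and 39.3% were called in OB under these scalings (2158 and 2646 higher). In BS 36.0% and 38.4% were called (2135 and 2545 higher).

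**Figure D1:**
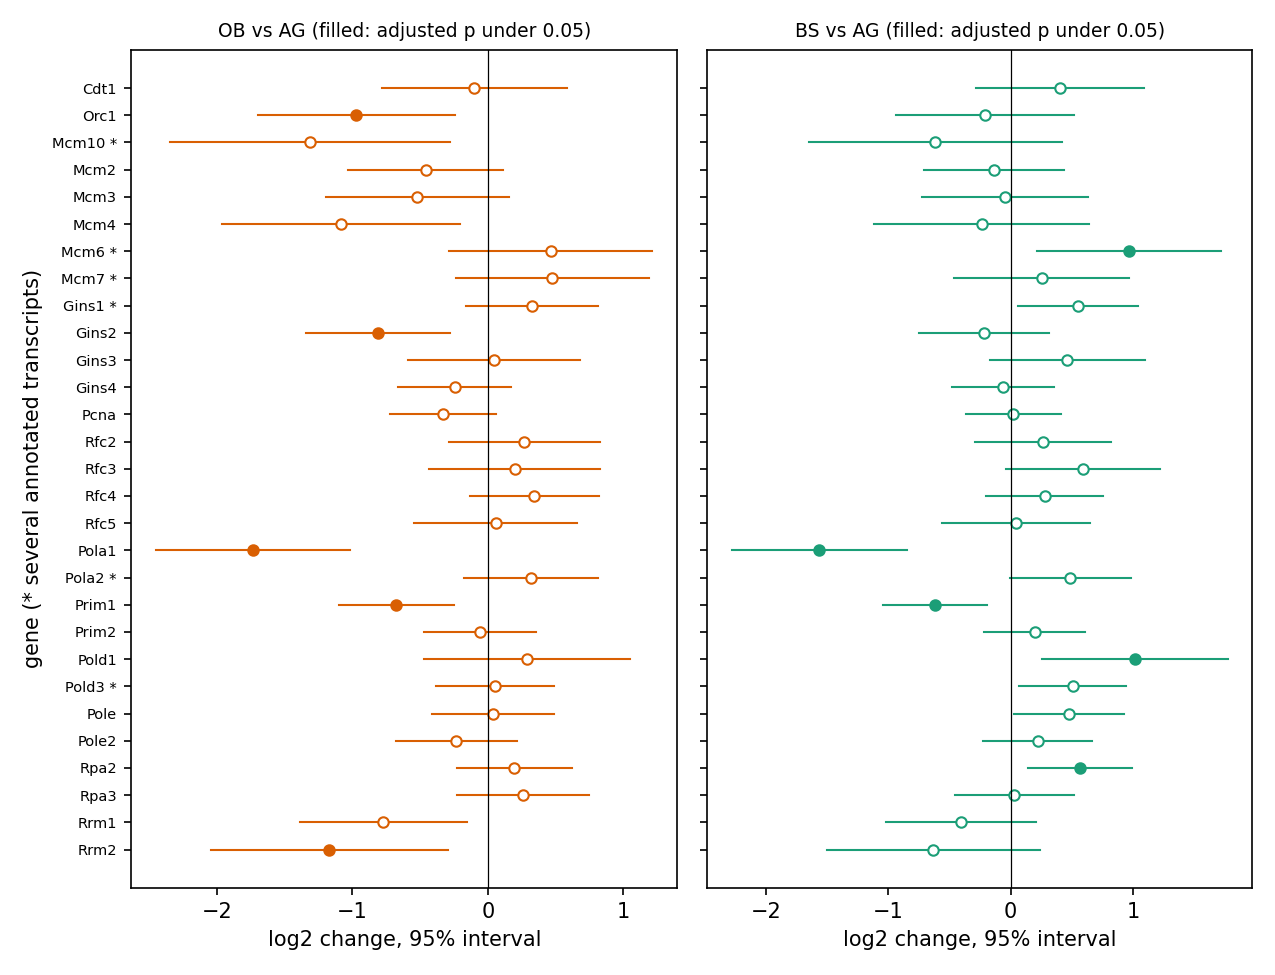
Log2 change with its 95% interval for the 29 tested replication genes in OB versus AG and in BS versus AG, with filled points for adjusted p under 0.05 and an asterisk for genes with several annotated transcripts. Pola1 lies farthest below 0 in both panels, at -1.73 in OB and -1.56 in BS, and Pold1 lies farthest above 0 in BS, at 1.01.

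**Figure D2:**
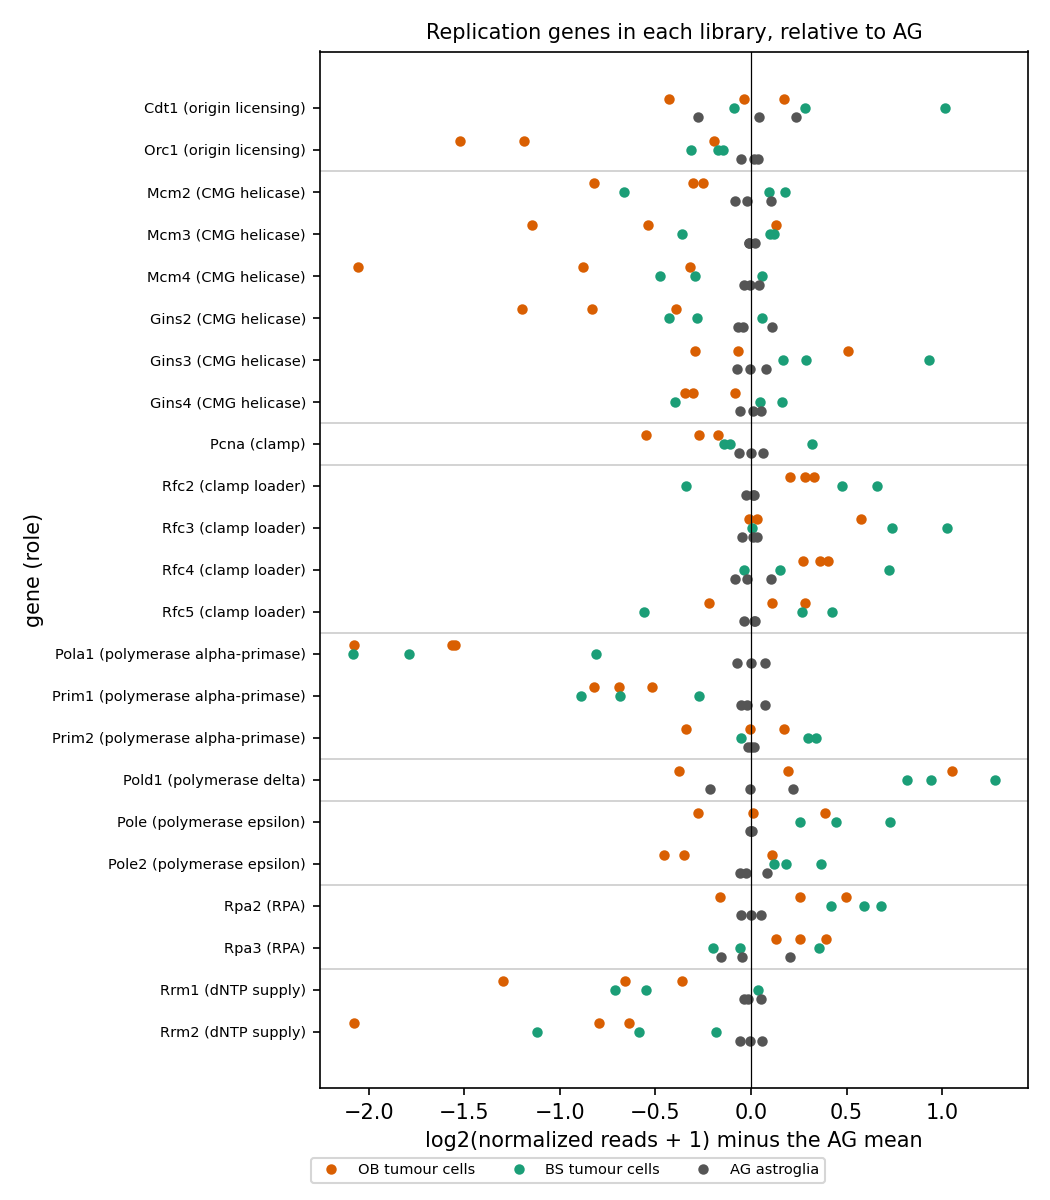
Each point is a library: its log2(normalized reads + 1) minus the mean of the AG libraries, for the 23 replication genes with 1 annotated transcript, grouped by role. OB points lie above BS points and BS above AG points within each row; Pola1 and Prim1 lie left of AG in all 6 tumour libraries, and AG points stay near 0.

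The clearest difference was in Pola1, the catalytic subunit of polymerase alpha-primase, the complex that lays down primers. Pola1 had 1433, 2069 and 2043 normalized reads in OB, 1747, 3451 and 1426 in BS and 5759.8, 6049 and 6357 in AG. Every OB and BS library was below every AG library, with the highest tumour value in BS_295. Pola1 averaged 1849 ± 359.7 normalized reads in OB, 2208 ± 1089 in BS and 6055 ± 299 in AG (SD, n = 3 each). Pola1 fell to 0.301-fold of AG in OB (log2 change -1.73 ± 0.31 SE, limma adjusted p = 0.00331) and to 0.339-fold in BS (log2 change -1.56 ± 0.31 SE, limma adjusted p = 0.0056). It was the only replication gene called in all 26 alternative settings of both comparisons, among which the log2 change ran from -1.82 to -1.39 in OB and from -1.94 to -1.23 in BS. Per kilobase of transcript, Pola1 ranked 19 of the 23 in OB at 346 normalized reads and 20 in BS at 413, against 9 in AG at 1133. The lengths are GENCODE's, and those used in the authors' counting are not given. No other annotated exon overlaps Pola1 on either strand.

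Prim1, the catalytic primase subunit, had 1513, 1378 and 1706 normalized reads in OB, 1518, 2023 and 1318 in BS and 2406, 2351 and 2569.9 in AG. All tumour libraries were below AG, by less than for Pola1. Prim1 fell in OB (log2 change -0.68 ± 0.19 SE, limma adjusted p = 0.0222) and in BS (log2 change -0.61 ± 0.19 SE, limma adjusted p = 0.0328). The Prim1 call was lost in OB without any 1 of the AG libraries (adjusted p = 0.0639 to 0.0823) or without OB_287 (0.0571). In BS it was lost without any 1 of the AG libraries (0.0847 to 0.109), without BS_287 (0.0701) or without BS_296 (0.0887). Under upper-quartile scaling, quantile normalization and scaling to total reads it was lost in both, and in BS also with edgeR (0.0565) and with no variance trend (0.0597).

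The other subunits of the complex were not called. Prim2, the large primase subunit, had 1256, 1587 and 1795 normalized reads in OB, 1536, 2014 and 1959.6 in BS and 1593, 1609 and 1574 in AG, and the groups overlapped in both comparisons with AG. Its log2 change was -0.06 in OB (95% interval -0.47 to 0.36) and 0.20 in BS (-0.22 to 0.61). Pola2, the B subunit of polymerase alpha, has several annotated transcripts, and its row held 393, 404 and 351 normalized reads in OB, 387, 379 and 539.9 in BS and 354, 288 and 282 in AG. Its change was 0.32 in OB (adjusted p = 0.282) and 0.49 in BS (adjusted p = 0.114).

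A ratio inside a library does not depend on the library's size factor. The ratio of Pola1 to Prim2 was 1.14, 1.30 and 1.14 in OB, 1.14, 1.71 and 0.728 in BS and 3.61, 3.76 and 4.04 in AG. The ratio of Prim1 to Prim2 was 1.21, 0.868 and 0.950 in OB, 0.989, 1.00 and 0.673 in BS and 1.51, 1.46 and 1.63 in AG. Neither ratio overlapped between tumour cells and AG. These ratios show unequal change between subunits, not which subunit was constant.

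**Figure D3:**
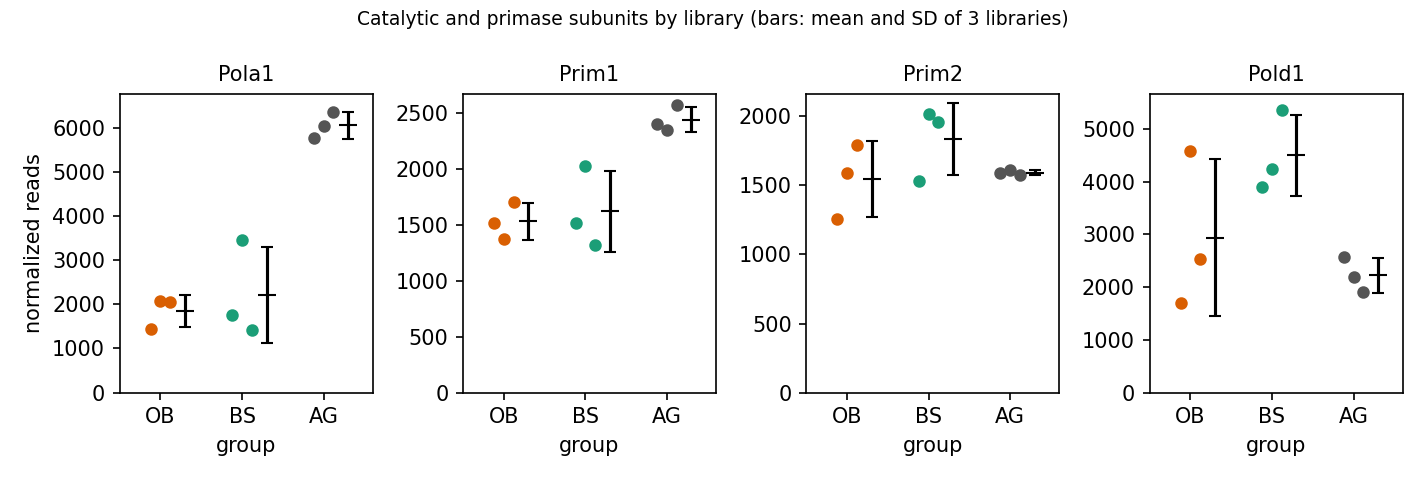
Normalized reads of Pola1, Prim1, Prim2 and Pold1 in each library, with the mean and SD of 3 libraries beside the points of OB, BS and AG. Pola1 lies between 1426 and 3451 in tumour libraries, against 5760 to 6357 in AG, while Prim2 overlaps across groups.

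The Pola1 promoter window is shown because Pola1 had the largest change among the called genes and its upstream sequence holds a match to an E2F-type motif. The Mcm6 window is shown beside it as the gene with most matches, on the same motif set. Both are the 150 bases before the RefSeq start, from RefSeq on build GRCm38.p6, not the build of the table, written 5′ to 3′ on the gene's strand, with matches in capitals; in Mcm6 the first capital run holds 2 overlapping matches.
Pola1, chrX:93632156-93632305, minus strand: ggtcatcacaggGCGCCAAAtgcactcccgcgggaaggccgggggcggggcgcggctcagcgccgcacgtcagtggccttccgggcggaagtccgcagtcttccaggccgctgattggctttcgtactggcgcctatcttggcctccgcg
Mcm6, chr1:128359706-128359855, minus strand: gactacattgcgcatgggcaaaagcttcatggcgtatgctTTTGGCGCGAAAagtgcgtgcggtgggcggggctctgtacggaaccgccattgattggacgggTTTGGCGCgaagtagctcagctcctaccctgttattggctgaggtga
The motifs searched were TTTCCCGC, TTTGGCGC, TTTCGCGC and TTTGCCGC, on both strands and counting overlaps, in the 250 bases before each start. Of the 31 replication genes with a promoter entry, 8 held a match (25.8%): Mcm5, Mcm6, Mcm7, Gins3, Rfc3, Pola1, Cdc6 and Orc1. The share was 3.81% of the 8213 tested genes with an entry and 2.16% of all 27025 entries. In Pola1 the match, GCGCCAAA, began 138 bases before the start. Of the 8 genes, Pola1 fell in both tumour groups, Orc1 fell in OB and Mcm6 rose in BS. The Orc1 and Mcm6 calls were lost in 18 and 13 of 26 alternative settings. Mcm7, Gins3 and Rfc3 were called in neither comparison with AG, Mcm5 had no row and Cdc6 did not pass the filter. Of all tested genes, 34.9% were called in OB and 35.1% in BS. A link between motif matches and these changes was not tested.

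Polymerases delta and epsilon extend the primers. Pold1, the catalytic subunit of polymerase delta, had 1701, 4584 and 2528 normalized reads in OB, 3896, 4245 and 5361 in BS and 2569.7, 2202 and 1906 in AG. All BS libraries were above AG, while OB overlapped AG, with OB_287 high. Pold1 rose in BS (log2 change 1.01 ± 0.33 SE, limma adjusted p = 0.0444). In OB its log2 change was 0.29 (adjusted p = 0.534, 95% interval -0.47 to 1.05). The BS call was lost without any 1 of the AG libraries (adjusted p = 0.0795 to 0.139), BS libraries (0.0595 to 0.126) or OB_295 (0.0619), or with no variance trend (0.0631), although the log2 change stayed between 0.88 and 1.35 over all alternatives. Pold3, an accessory subunit of polymerase delta with several annotated transcripts, had 1153, 1876 and 1416 normalized reads in OB, 1890.4, 2146 and 1938 in BS and 1412, 1431 and 1356 in AG. All BS libraries were above AG, and its change of 0.51 in BS missed the threshold (adjusted p = 0.0699).

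Pole, the catalytic subunit of polymerase epsilon, had 3042, 4836 and 3715 normalized reads in OB, 4413, 6117 and 5033 in BS and 3683, 3703 and 3689 in AG. BS lay above AG in every library and OB on both sides, and the change was 0.48 in BS (adjusted p = 0.0937) and 0.04 in OB (adjusted p = 0.897). Pole2, its second subunit, had 481, 711 and 517 normalized reads in OB, 748, 851 and 718 in BS and 635, 699 and 648 in AG, with changes of 0.22 in BS (adjusted p = 0.408) and -0.23 in OB (adjusted p = 0.386). The ratio of Pole2 to Pole was 0.139 to 0.158 in OB, 0.139 to 0.170 in BS and 0.172 to 0.189 in AG, so it lay below AG in every tumour library by a small margin. The ratio of Pold1 to Pole overlapped in every comparison. Pole's exons overlap a gene on the other strand (Gm15792) and Pole2's a gene on the same strand (Gm49384), and whether strand was used in counting is not stated.

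Among the helicase genes, the Mcm ring subunits with high rows lay below or near AG. Mcm2 had 7152, 4812 and 6900.1 normalized reads in OB, 5367, 9612 and 9070.1 in BS and 9144, 8382 and 8032 in AG. Mcm3 had 3276, 7938 and 5005 normalized reads in OB, 5653, 7780.2 and 7879.9 in BS and 7372, 7200.4 and 7209.9 in AG. Mcm4 had 1897, 6312 and 4289.6 normalized reads in OB, 5669, 8191 and 6432 in BS and 7683, 7845 and 8122 in AG. OB was below AG in every library for Mcm2 and Mcm4, whereas BS overlapped AG for all of Mcm2, Mcm3 and Mcm4. None was called: Mcm4 came nearest, at -1.08 in OB (adjusted p = 0.0573), with OB_257 lowest at 1897 normalized reads. Without OB_257 the adjusted p was 0.0651, and without OB_257 and BS_287 together it was 0.0415. The ratio of Mcm4 to Mcm3 was 0.579, 0.795 and 0.857 in OB, 1.00, 1.05 and 0.816 in BS and 1.04, 1.09 and 1.13 in AG, so OB lay below AG and BS overlapped it. The ratio of Mcm2 to Mcm3 overlapped in every comparison. It was 2.18, 0.606 and 1.38 in OB, 0.949, 1.24 and 1.15 in BS and 1.24, 1.16 and 1.11 in AG.

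Mcm6 was called in BS, but the gene has 2 annotated transcripts and 1 row in the table, and its reads were few. It had 224, 165 and 151 normalized reads in OB, 383, 172 and 241 in BS and 121, 126 and 138 in AG. It rose in BS (log2 change 0.97 ± 0.33 SE, limma adjusted p = 0.0498), and the change in OB was 0.46 (adjusted p = 0.301), with both groups wholly above AG. Without BS_287, its highest library, the change was 0.66 (adjusted p = 0.116). The call was also lost without any 1 of the AG libraries (0.109 to 0.141), BS_296 (0.0905), OB_287 (0.0584) or OB_295 (0.0606), with a pseudocount of 5 (0.0532), with no filter (0.0586), with a filter of 50 normalized reads (0.0515), with only the highest row of a symbol (0.0502) and in a fit of BS and AG alone (0.0512). Mcm7, with several transcripts and overlapping genes on both strands, had 69.6, 78 and 114 normalized reads in OB, 62.9, 83.2 and 73.9 in BS and 50.9, 62.1 and 71.9 in AG and was not called against AG in OB (adjusted p = 0.268) or BS (0.565). Mcm10, which helps to activate the helicase and also has several transcripts, had 6.63, 4.76 and 2.17 normalized reads in OB, 10.9, 7.47 and 4.93 in BS and 10, 11.8 and 14.2 in AG, and its -1.31 in OB missed the threshold (adjusted p = 0.0526).

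The GINS complex, which completes the active helicase, gave 1 call. Gins2 had 557, 975 and 719 normalized reads in OB, 1054, 951 and 1334 in BS and 1382, 1246 and 1219.6 in AG, below AG in every OB library and overlapping AG in BS. It fell in OB (log2 change -0.81 ± 0.23 SE, limma adjusted p = 0.0271). The call was lost without any 1 of the AG libraries (adjusted p = 0.0705 to 0.0957), OB_257 (0.0589) or OB_295 (0.0657), and under scalings other than the deposited and TMM factors. Gins2 overlaps Gse1 on the other strand. Gins3 had 442, 661 and 378 normalized reads in OB, 886, 568 and 521 in BS and 441, 489.8 and 463 in AG and Gins4 had 1485, 1237 and 1275 normalized reads in OB, 1765, 1196 and 1629 in BS and 1631, 1584 and 1511 in AG, and neither was called (adjusted p = 0.910 and 0.323 in OB, 0.231 and 0.819 in BS). Gins1, with several transcripts, had 340.4, 332 and 374 normalized reads in OB, 324, 495 and 419.7 in BS and 294, 277 and 261 in AG, above AG in every tumour library, with 0.55 in BS (adjusted p = 0.0763) and 0.33 in OB (adjusted p = 0.263).

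Of the licensing genes, Orc1 was called in OB and Cdt1 in neither group. Orc1, the largest subunit of the origin recognition complex, had 210, 530.1 and 265 normalized reads in OB, 548, 538 and 487 in BS and 623, 584 and 612 in AG. OB_257 and OB_295 were far below AG, while OB_287 was close to it, and all BS libraries were just below AG. Orc1 fell in OB (log2 change -0.97 ± 0.32 SE, limma adjusted p = 0.0444) and was not called in BS (-0.21, adjusted p = 0.640). The OB call was lost in 18 of 26 alternatives, edgeR (adjusted p = 0.0897) and DESeq2 (0.0535) included, and without OB_257 its change was -0.69 (0.101). It was also lost without any 1 of the AG libraries (0.108 to 0.120), the BS libraries (0.0510 to 0.0599) or OB_295 (0.118). Orc1 overlaps Gm12743 on the other strand. Cdt1, which brings the Mcm ring to the origin, had 2084, 1803 and 1374 normalized reads in OB, 3743, 1737 and 2253 in BS and 2179.5, 1904 and 1526 in AG, with both tumour groups overlapping AG and changes of -0.10 in OB (adjusted p = 0.829) and 0.40 in BS (adjusted p = 0.329).

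The clamp Pcna had 3469, 4500.4 and 4204 normalized reads in OB, 4608, 6329 and 4696 in BS and 5302, 4855 and 5075 in AG, below AG in every OB library, with -0.33 in OB (adjusted p = 0.167) and 0.02 in BS (adjusted p = 0.930). Pcna has pseudogenes (Pcna-ps1 and Pcna-ps2) that could take part of its reads. The loader subunits Rfc2, Rfc3, Rfc4 and Rfc5 were not called in any comparison. Rfc2 had 2068, 2186 and 2258 normalized reads in OB, 1419.9, 2834 and 2499 in BS and 1816, 1813 and 1764 in AG. Rfc3 had 1324, 1286 and 1928 normalized reads in OB, 1301, 2640.3 and 2159.6 in BS and 1326, 1256 and 1307 in AG. Rfc4 had 1289, 1251 and 1177 normalized reads in OB, 949, 1608 and 1084 in BS and 962, 919.5 and 1049 in AG, and Rfc5 had 1458, 1158 and 1642 normalized reads in OB, 915, 1809 and 1624 in BS and 1362, 1318 and 1371 in AG. Rfc2 and Rfc4 lay above AG in every OB library, by 0.27 (adjusted p = 0.420) and 0.34 (adjusted p = 0.232). In BS the loader genes were spread by BS_287, the lowest BS library for all 4. Rfc3 had the largest change there, 0.59 (adjusted p = 0.130). Rfc2, Rfc4 and Rfc5 overlap Lat2, Eif4a2 and Wsb2 on the other strand.

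Replication protein A coats single-stranded DNA at the fork. Its middle subunit Rpa2 had 1572, 2477 and 2099 normalized reads in OB, 2349, 2651 and 2813 in BS and 1757, 1692 and 1825 in AG. All BS libraries were above AG, and OB straddled it. Rpa2 rose in BS (log2 change 0.56 ± 0.19 SE, limma adjusted p = 0.0451) and was not called in OB (0.20, adjusted p = 0.444). The call was lost without any 1 of the AG libraries (adjusted p = 0.103 to 0.134), BS_295 (0.0907), BS_296 (0.113) or OB_295 (0.0610), and with no variance trend (0.0802) or no filter (0.0600). The small subunit Rpa3 had 567, 472 and 516 normalized reads in OB, 414, 552 and 375 in BS and 418, 386 and 498 in AG, overlapping in all comparisons, with adjusted p = 0.375 in OB and 0.922 in BS.

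Ribonucleotide reductase makes the deoxynucleotides. Its regulatory subunit Rrm2 had 1235, 3344 and 3002 normalized reads in OB, 2394, 4593 and 3463 in BS and 5196, 5011 and 5419.7 in AG. Both tumour groups lay wholly below AG, with OB_257 the lowest library. Rrm2 fell in OB (log2 change -1.17 ± 0.38 SE, limma adjusted p = 0.0437), and in BS the change was -0.63 (adjusted p = 0.235). Without OB_257 the change was -0.72 (adjusted p = 0.0621), and without OB_257 and BS_287 together the same -0.72 had an adjusted p of 0.00883. The call was also lost without any 1 of the AG libraries (0.103 to 0.118) or BS_296 (0.0620), with upper-quartile scaling (0.0700), quantile normalization (0.0740) or scaling to total reads (0.0968), with edgeR (0.0609), with no variance trend (0.0603) and in a fit of OB and AG alone (0.0527). The large subunit Rrm1 had 5745, 10993 and 8944 normalized reads in OB, 8624, 14488 and 9649 in BS and 13772, 13941 and 14633 in AG, below AG in every OB library, at -0.77 (adjusted p = 0.0547) in OB and -0.41 (adjusted p = 0.274) in BS. The ratio of Rrm2 to Rrm1 was 0.215, 0.304 and 0.336 in OB, 0.278, 0.317 and 0.359 in BS and 0.377, 0.359 and 0.370 in AG. It lay below AG in OB and, by the narrowest margin in BS_296, in BS.

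**Figure D4:**
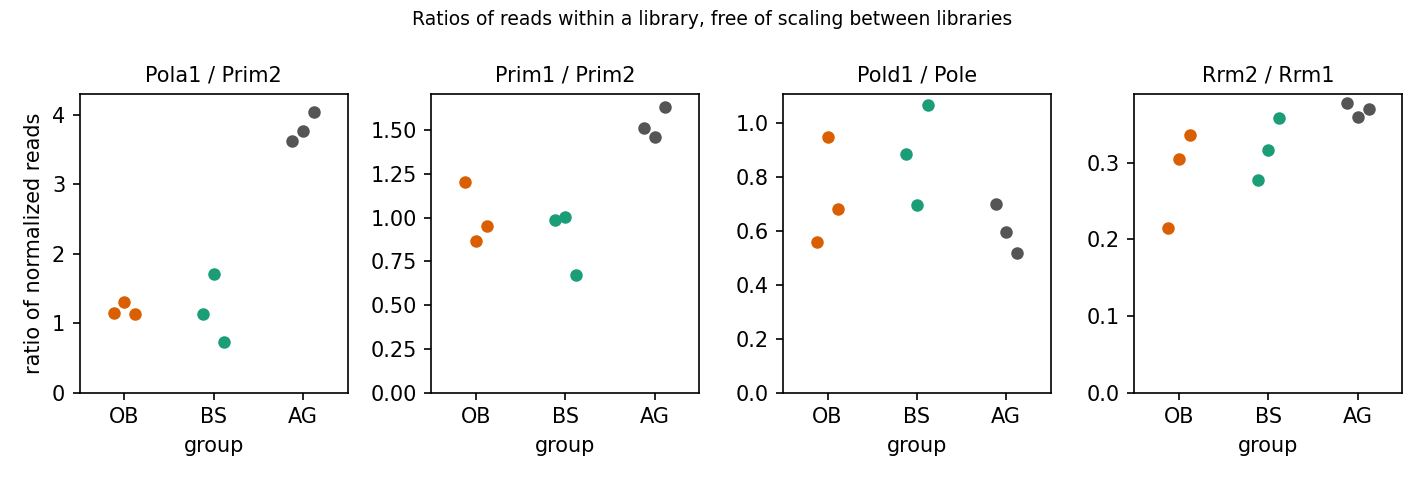
Ratios of normalized reads within each library for pairs of replication genes, a point per library, with OB left, BS in the middle and AG right. Pola1 over Prim2 and Prim1 over Prim2 separate all tumour libraries from AG, while Pold1 over Pole overlaps. Rrm2 over Rrm1 also lies below AG in all tumour libraries, by a very narrow margin in BS_296.

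The remaining genes could not be read. Pold2, Rpa1, Cdc6, Fen1 and Lig1 had a row but no more than 17 normalized reads in any library and did not pass the filter. All of these have several annotated transcripts, and the median row of the table held 259 normalized reads where a gene has 1 annotated transcript, 12.6 where it has 2 and 6.81 where it has more, and low rows of these genes were not read as low expression. Mcm5, Rfc1, Cdc45 and Orc6 matched no row and were not analysed here.

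Compared per kilobase of transcript, Rrm1 and Pcna had the highest levels of the 23 in every group: 2142 and 2673 normalized reads per kilobase in OB, 2732 and 3433 in BS and 3531 and 3345 in AG. Mcm2 and Mcm3 followed in all groups, at ranks 3 and 4. Orc1, Gins2 and Gins3 took the lowest ranks, 21 to 23, in every group. Outside Pola1, the rank that moved most was Pold1's, at 12 in OB, 9 in BS and 16 in AG.

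OB and BS tumour cells were compared in the 6 tumour libraries alone, because AG libraries vary far less. No replication gene was called, and no gene of the 10576 was (0% called, 0% higher and 0% lower), while 499 genes had an unadjusted p under 0.05, none of them a replication gene. edgeR called 0 genes as well (557 at unadjusted p under 0.05), and DESeq2 called 117 genes, none a replication gene. The mean log2 value was lower in OB than in BS for 19 of the 23 genes with 1 transcript, with a median difference of -0.37 (range -0.85 to 0.23), beside 0.01 over all tested genes. When a library was left out, that median of the 23 ran from -0.52 (without OB_287) to -0.24 (without OB_257). The largest differences were -0.85 for Mcm4 (95% interval -1.97 to 0.28), -0.76 for Orc1 (-1.70 to 0.19) and -0.72 for Pold1 (-1.67 to 0.22). For Pola1 the difference was -0.17 (-1.09 to 0.75) and for Prim1 -0.06 (-0.61 to 0.49), intervals wide enough to hold sizeable differences in either direction.

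The level of the replication genes differed between libraries of the same tumour group. The median of the 23 genes, relative to AG, was -0.34 in OB_257, -0.04 in OB_287 and -0.30 in OB_295, and -0.14 in BS_287, 0.29 in BS_295 and 0.12 in BS_296. OB_257 was the lowest of the 6 tumour libraries for 12 of the 23 genes, against 25.7% of all tested genes. BS_295 was the highest for 14 of the 23, against 15.1% of all tested genes. The summed normalized reads of the 23 genes were 45255, 67102 and 58281 in OB, 61516, 86777 and 73782 in BS and 77039 to 79014 in AG. In BS_295 the median thus lay above AG, with 15 of the 23 genes above every AG library. The 6 below every AG library there were Pola1, Prim1, Rrm2, Gins2, Gins4 and Orc1.

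Genes that work beside these were examined as lists. Their counts stand beside 16% of all tested genes higher and 19% lower in OB, and 15.6% higher and 19.5% lower in BS, and beside all-gene medians of -0.01 in OB and -0.03 in BS. Of other origin and helicase factors, 2 of 11 tested rose and none fell in OB, and 2 rose and none fell in BS, shares near that background for higher genes. With scaling to total reads 4 of 11 rose in OB and 7 in BS. Of all 10576 tested genes, 2646 rose in OB and 2545 in BS under that scaling. Recql4, a helicase that acts in initiation, rose in OB (log2 change 1.36, adjusted p = 0.0368). Orc5, a subunit of the origin recognition complex, rose in OB (0.92, adjusted p = 0.0179) and BS (0.85, 0.0244). Mcm9, a helicase related to the Mcm ring, rose in BS (0.98, 0.00545). The list's median log2 change was 0.06 in OB and 0.50 in BS.

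Of other fork factors, 4 of 14 rose and none fell in each tumour group, beside 16% and 15.6% of all tested genes higher in OB and BS. With scaling to total reads 5 rose in OB and 6 in BS, beside 2646 and 2545 of all 10576 tested genes. Rnaseh2b, a subunit of the nuclease that removes ribonucleotides, averaged 1184 ± 106 normalized reads in OB, 1302 ± 461 in BS and 438 ± 22.4 in AG (SD, n = 3 each), with changes of 1.43 (limma adjusted p = 0.0036) in OB and 1.504 (0.0029) in BS. Top1, which relaxes DNA ahead of forks, rose by 1.08 in OB (0.0155) and 0.97 in BS (0.0244). Atad5, which unloads the clamp, rose by 0.79 in OB (0.0365) and 0.89 in BS (0.0226). Dscc1, part of an alternative clamp loader, rose by 2.41 in OB (0.0299) and 2.103 in BS (0.0496) but averaged 2.44 normalized reads in AG, under the 3 reads taken as a floor, so the size depends on the pseudocount, and it lost both calls under quantile normalization. The median was 0.02 in OB and 0.33 in BS.

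Of other nucleotide supply genes 1 of 6 rose in each, near the background share for higher genes. It was Shmt1, a folate cycle enzyme, at 0.79 in OB (adjusted p = 0.0178) and 1.40 in BS (0.00112). Chromatin assembly genes went both ways. Chaf1b, a subunit of the histone chaperone CAF-1, fell in OB (-1.30, 0.00291). In BS the histone chaperone Nasp rose (1.97, 0.00289) and the histone chaperone Asf1b fell (-0.95, 0.0131), a call lost with scaling to total reads. These are the calls among 7 tested genes of that list. Of the E2F and S-phase cyclin list, 1 of 13 rose in OB and 4 rose in BS, with none falling, beside 16% and 15.6% of all tested genes higher. The counts depended on scaling: in OB 3 rose with TMM, 3 with upper-quartile scaling, 2 with quantile normalization and 4 with scaling to total reads, and in BS 4, 4, 5 and 6 rose. Of all 10576 tested genes, 1782, 2158, 1846 and 2646 rose in OB under those scalings. In BS these were 1761, 2135, 1877 and 2545. E2f2 rose in OB (1.65, 0.00827) and BS (1.71, 0.00721), and E2f3 (1.74, 0.0146), Skp2 (1.53, 0.0186) and Cdc25a (0.55, 0.0398) rose in BS. In OB versus BS none of the listed genes was called. Under the 4 other scalings tried no called gene of these lists changed sign, but counts of calls rose, for origin and helicase factors in BS to 4 with upper-quartile scaling and quantile normalization and in OB to 4 and 3.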

How the data were processed

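RNA from 9 libraries (3 each of OB, BS and AG) was extracted with Sepazol, and a TruSeq stranded kit was used for sequencing, per the labels. The submitters' processing notes name, without role or order, build mm9 and the tools DESeq2 1.20.0, Subread 1.6.2 with featureCounts, HISAT2 2.1.0 and bcl2fastq 1.8.4. The gene annotation, the strand setting and the handling of shared reads were not stated. The deposited table is a signal value per RefSeq transcript, made by the authors as reads divided by a factor per library. Undoing that factor, read from the low values, gave whole reads for 100% of values within 0.05 reads.

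Of 16260 rows, 16202 were named through RefSeq, 41 through GENCODE and 17 not at all (0.461% of reads, left out). Rows of a symbol were added. Genes with at least 10 normalized reads in at least 3 libraries were tested two-sided on log2(value + 1) by limma 3.58.1 with a variance trend (R 4.3.3) and Benjamini-Hochberg adjustment. OB and BS were each compared with AG in a fit of all 9 libraries, and OB with BS in the 6 tumour libraries. edgeR 4.0.16 and DESeq2 1.42.0 were run on the recovered reads. The replication genes and the other lists were chosen with earlier results of these data known. All 38 replication genes are accounted for, with values in every library for those called and for complexes described together. Of each other list, up to 4 called genes per comparison with the largest change are named. Columns without a sample numbered 0. With few libraries a missed call does not show equal levels, and a rise or fall is stated only for called genes. Where libraries or means of uncalled genes are placed above or below a group, their position is described without a call.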

Additional observations from a re-analysis of the deposited data

How the results depend on the processing

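Of 2172 alternative values of single replication genes, 2030 kept their status as called or not called. Most of these were uncalled throughout, as only 10 of the 87 pairs of gene and comparison were called as reported. Another 87 values lost the call, 55 gained it and 0 changed sign with a call in either setting. The 2030 include 71 changes of sign between uncalled values. Only Pola1 kept its call in all 26 alternatives of both comparisons with AG. The replication genes called in OB versus AG, 5 as reported, numbered 1 with upper-quartile scaling, 1 with quantile normalization and 3 with edgeR, and 1 to 7 when a library was left out. Of all tested genes, 36.2%, 34.0% and 35.2% were called there, and 23.7% to 39.4% when a library was left out. Those called in BS versus AG, also 5, numbered 3 with no filter, 9 with upper-quartile scaling, 8 with quantile normalization, 12 with scaling to total reads (chosen after seeing the data), 2 with no variance trend, 8 with a weight per group and 8 without OB_257 and BS_287, and 1 to 6 when a library was left out. The shares of all tested genes called were, in that order, 27.2%, 36.0%, 34.0%, 38.4%, 33.7%, 41.4% and 44.8%. With a library left out they ran from 22.9% to 41.2%. All genes called in BS versus AG numbered 3712, and 2427 (without AG_2) to 4353 (without OB_257). In OB versus BS DESeq2 called 117 genes, 0 of them replication genes, where limma called 0. With the number in the name as a replicate block, 6 replication genes were called in OB versus AG, 3 in BS versus AG and 0 in OB versus BS, and in BS Pold1 (adjusted p = 0.0518) and Rpa2 (0.0522) were no longer called. Of all tested genes, 35.2%, 35.3% and 0% were called in that fit. BS_287 and OB_287, and BS_295 and OB_295, share a number, while AG numbers match no tumour library. Their deviations from the group means correlated at 0.07 and 0.30 across genes, beside -0.41 to 0.29 for tumour libraries of unlike number. Whether a shared number marks a shared animal is not stated, and these correlations cannot decide it. Other causes of these shifts were not tested. A row of few reads, as for Mcm6 and Mcm10, limits precision.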
